A study of Homo sapiens with 4 samples.

Results

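The genes described here are the G1 cyclins, the cyclin-dependent kinases (CDKs) they bind, and 2 opposing regulators of CDK activity. They are the D-type cyclin genes CCND1, CCND2 and CCND3, the E-type cyclin genes CCNE1 and CCNE2, the kinase genes CDK2, CDK4 and CDK6, and WEE1 and CDC25A. They were listed by name, with no threshold on measured values, and all 10 had a row among the 43622 genes of the expression table. RNA-seq was performed on PC3, an established line of human prostate adenocarcinoma cells, and on PC3-shp14ARF cells, in which an shRNA against p14ARF had been introduced by a retrovirus and selected with hygromycin as a stable population. Each was treated for 3 days with DMSO, the vehicle, or with 1 µM MLN4924, an inhibitor of NEDDylation. This gave 4 conditions, PC3 with DMSO (Ctrl), PC3 with MLN4924 (MLN), PC3-shp14ARF with DMSO (shARF) and PC3-shp14ARF with MLN4924 (Both), with 3 libraries in each. No control shRNA is named for the PC3 cells, so p14ARF depletion cannot be told apart here from transduction and selection. Nothing says that the 3 libraries came from separate cultures, and the p-values measure only the spread between libraries, which may be technical.

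Cyclins D1, D2 and D3 bind CDK4 or CDK6 and phosphorylate the retinoblastoma protein early in G1, which frees E2F transcription factors. E2F factors in turn drive the genes of cyclin E, CDC25A and much of the replication machinery, and cyclin E with CDK2 carries the cell into S phase. WEE1 adds an inhibitory phosphate to CDKs and the phosphatase CDC25A removes it. Several of these proteins are short-lived because cullin-RING ubiquitin ligases mark them for the proteasome, and these ligases need NEDD8 on their cullin, the step that MLN4924 blocks. RNA-seq reads transcripts only, so the protein levels were not measured here.

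The promoters of CDC25A, CCNE1 and CDK4 are shown because these genes stood for the different patterns below. CDC25A and CCNE1 are textbook E2F targets that were higher after MLN4924, and CDK4 was higher in PC3-shp14ARF cells. The sequences are the 250 bases before the RefSeq start site (GRCh38.p14), read 5′ to 3′ on the strand of the gene, at chr3:48188418-48188667 (minus strand) for CDC25A, chr19:29811741-29811990 (plus strand) for CCNE1 and chr12:57752311-57752560 (minus strand) for CDK4. Capitals mark matches to the motifs searched.
CDC25A: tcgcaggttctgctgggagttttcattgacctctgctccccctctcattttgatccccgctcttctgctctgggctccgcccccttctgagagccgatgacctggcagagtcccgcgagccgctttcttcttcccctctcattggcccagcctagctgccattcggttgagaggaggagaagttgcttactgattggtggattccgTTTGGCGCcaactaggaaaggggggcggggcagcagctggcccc
CCNE1: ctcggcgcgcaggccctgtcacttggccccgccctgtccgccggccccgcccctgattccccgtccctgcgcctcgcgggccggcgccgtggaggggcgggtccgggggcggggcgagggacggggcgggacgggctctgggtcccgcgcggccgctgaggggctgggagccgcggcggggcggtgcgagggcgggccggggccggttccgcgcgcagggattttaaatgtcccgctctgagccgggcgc
CDK4: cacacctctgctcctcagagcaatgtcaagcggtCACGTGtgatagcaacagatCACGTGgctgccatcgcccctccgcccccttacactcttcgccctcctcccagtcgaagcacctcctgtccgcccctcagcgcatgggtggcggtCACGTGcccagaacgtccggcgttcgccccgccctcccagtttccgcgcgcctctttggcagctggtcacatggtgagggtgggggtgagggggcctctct

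The E2F motifs TTTCGCGC, TTTGGCGC and TTCCCGCC were searched on both strands, in windows from 250 bases before to 50 bases after the start site. The CDC25A window held TTTGGCGC at positions −44 to −37 from the start site, a motif found in 0.652% of the 35116 promoters of this length. At least 1 of these motifs was in 4.24% of them. No exact match was present in the windows of CCNE1, CDK4, CCND3 or CDK6. CACGTG, the E-box bound by MYC and other factors, was searched after the values had been seen, and the CDK4 window held it 3 times, at −216, −196 and −101. A CDK6 window held it once, at 30 to 35 bases after the start site. At least 3 copies were in 0.0940% of the promoters and at least 1 copy in 7.26%. These matches describe letters and are not shown to be used in PC3 cells. CCND1, CCND2, CCNE2, CDK2 and WEE1 had no entry in the promoter table used.

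Transcript levels are given as TPM (a length-scaled share of all transcripts, which can be compared between genes), scaled by the authors to the same total in every library. The number of reads behind a TPM value is unknown. CDKN2A, the gene of p14ARF, was at 190, 183 and 177 TPM in the Ctrl libraries and 100.4, 133 and 119 in the MLN libraries. It was at 58.2, 58.7 and 60.9 TPM in shARF and 47.2, 41.2 and 54.01 in Both, so every shRNA library was below every library without it. The gene-level value does not separate p14ARF from p16INK4a transcripts. Log2 values correlated between libraries of one condition at r = 0.974 to 0.980. The epithelial keratin KRT8 was at 77.7 TPM or more in every library and KLK3, which PC3 cells are known to lack, was listed at 0 in all 12. Blood, endothelial and fibroblast markers (8 genes) summed to 24.6 to 27.9 TPM in Ctrl, 19.6 to 22.4 in MLN, 55.0 to 66.2 in shARF libraries and 10.6 to 11.7 in Both libraries; PTPRC, CD3E, VWF and DCN were at or near 0. The higher sum in shARF was that of 1 gene, the collagen gene COL1A2, with a mean of 6.73 TPM in Ctrl and 54.5 in shARF, whereas the endothelial gene PECAM1 went from 11.7 to 1.91 and COL1A1 from 7.27 to 4.04. The 7 PC3 markers summed to 1887 to 2072 TPM in Ctrl, 848 to 981 in MLN, 1821 to 2004 in shARF libraries and 757 to 799.7 in Both libraries. The part of these shifts in the results was not tested. As in any bulk sample, fewer cells in a phase and less RNA per cell cannot be told apart.

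In Ctrl the highest of these genes was CCND1 at 308 ± 26.9 TPM (SD, n = 3), followed by CDK4 at 229.7 ± 7.63, CDK2 at 64.2 ± 2.08, CCND3 at 30.1 ± 1.16, CDK6 at 26.8 ± 2.11 and CDC25A at 13.3 ± 1.37. Libraries of neighbours in this order did not overlap. CCNE2, CCNE1 and WEE1 lay together at 5.37 ± 0.256, 5.32 ± 1.23 and 5.04 ± 0.480 TPM, and their ranges overlapped. CCND2 was last at 0.0712 ± 0.0139 TPM. After MLN4924 the order was another. CDK2 and CDK4 shared the top in both MLN (235 ± 25.7 and 220.4 ± 22.6 TPM) and Both (299 ± 24.1 and 294 ± 11.5 TPM), with overlapping ranges. CCND1 was in place 5 of 10 in MLN and place 6 in Both.

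**Figure D1:**
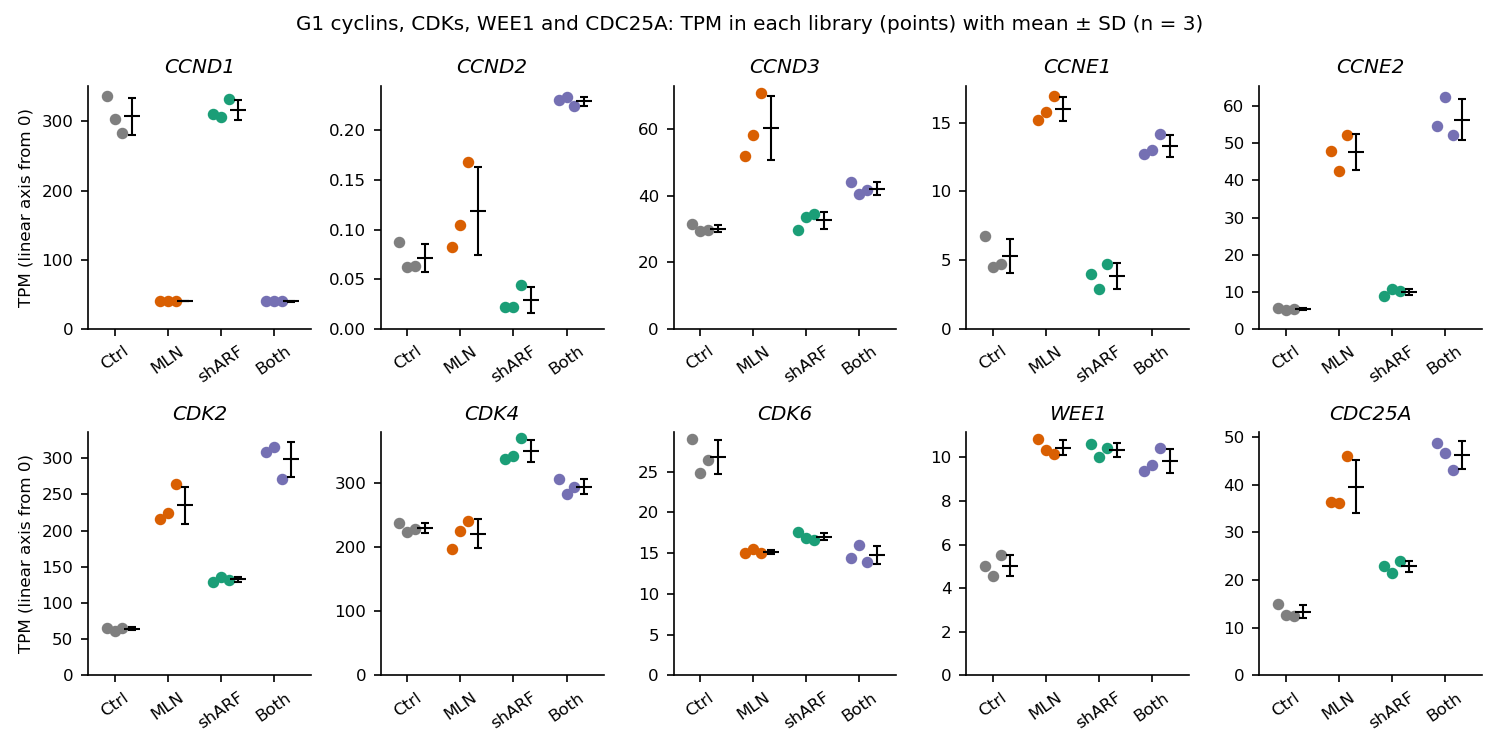
TPM of the 10 genes (y axis, linear from 0, its own scale in each panel) in the 4 conditions (x axis); points are libraries, and the black marks are mean ± SD of 3 libraries. CCND1 sits near 40 TPM in all 6 MLN4924 libraries, and WEE1 is near 10 TPM in every condition but Ctrl.

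MLN4924 lowered CCND1 and raised the E-type cyclins, CDK2, CDC25A, WEE1 and CCND3 in PC3 cells. Of the 10 genes tested in MLN vs Ctrl, 6 were higher and 2 lower at an adjusted p below 0.05 (limma, on log2(TPM + 0.1), where folds of weakly expressed genes come out too small). Of the 19932 genes tested, 61.6% were called, 32.2% as higher and 29.4% as lower. The median absolute log2 fold change was 1.30 among the 10 genes and 0.65 among all genes tested. CDK4 and CCND2 were not called. In PC3-shp14ARF cells (Both vs shARF) 6 were higher, 3 were lower and 1 was not called (5 and 3 of 9 without CCND2, which was tested only through its MLN4924 libraries), while 61.0% of all genes were called, 28.3% as higher and 32.8% as lower. CCND1 and CCNE2 were beyond a log2 fold change of 2 in either direction in both cell populations.

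CCND1, the main D-type cyclin transcript of PC3 cells, lies on chromosome 11 of GRCh38 from 69641156 to 69654474 on the plus strand. It was at 336, 303 and 283 TPM in the Ctrl libraries and at 40.6, 40.0 and 40.6 TPM in the MLN libraries. The shARF libraries had 311, 306 and 333 TPM and the Both libraries 39.7, 39.7 and 40.6 TPM. Thus the DMSO and MLN4924 libraries lay far apart, and the 6 MLN4924 libraries spanned less than 1 TPM. The fall was 7.58-fold in PC3 cells (log2 fold change −2.92, SE 0.069, adjusted p = 2.78e-06) and 7.89-fold in PC3-shp14ARF cells (log2 fold change −2.98, SE 0.042, adjusted p = 6.68e-07). No difference between these falls was detected (interaction −0.058, 95% confidence interval −0.25 to 0.13, adjusted p = 0.666). The interaction is the log2 fold change of Both vs shARF minus that of MLN vs Ctrl. Nor was CCND1 called in shARF vs Ctrl (0.044, interval −0.14 to 0.23) or Both vs MLN (−0.015, interval −0.11 to 0.083). Exons of CCND1 share 497 bases with a gene of the opposite strand, LTO1, listed here under its older symbol ORAOV1, whose mean lay between 11.8 and 13.0 TPM in the 4 conditions.

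CCND3, the second D-type cyclin of these cells, moved the other way. It was at 31.4, 29.3 and 29.6 TPM in Ctrl and 51.9, 58.2 and 70.8 TPM in MLN. In PC3-shp14ARF cells it went from 29.6, 33.5 and 34.5 TPM to 44.1, 40.5 and 41.7 TPM. The MLN4924 libraries were above the DMSO libraries in each case, and the MLN libraries were above the Both libraries. The rise was 1.98-fold in PC3 cells (log2 fold change 0.99, SE 0.12, adjusted p = 0.000579) and 1.29-fold in PC3-shp14ARF cells (0.37, SE 0.070, adjusted p = 0.00465). CCND3 was lower in Both than in MLN (−0.51, adjusted p = 0.0222), a call lost under 5 of 13 other settings, among them without MLN replicate 2 (adjusted p = 0.0694), Both replicate 2 (0.0600), Both replicate 3 (0.0752) or Both replicate 4 (0.0672).

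CCND2 encodes the D-type cyclin that was nearly absent here. It was at 0.0873, 0.0627 and 0.0637 TPM in Ctrl, 0.0825, 0.105 and 0.169 in MLN, 0.0220, 0.0217 and 0.0444 in shARF libraries and 0.230, 0.233 and 0.224 in Both libraries. It entered the test, open to genes averaging 0.1 TPM or more across all 12 libraries, only through its MLN4924 libraries, so its call in Both vs shARF (1.35, adjusted p = 0.00148) is given as a description. Its call in shARF vs Ctrl (−0.41, adjusted p = 0.0394) was lost under 8 of 13 other settings, among them without any of the Ctrl libraries (adjusted p = 0.0765, 0.0612 and 0.0670 without Ctrl replicates 1, 2 and 3) or without shARF replicate 1 (0.104) or 3 (0.0931).

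Together the D-type cyclin transcripts summed to 338 ± 27.9 TPM in Ctrl, 101 ± 9.75 in MLN, 349 ± 15.9 in shARF libraries and 82.3 ± 1.81 in Both libraries. CCND1 made up 91.0 ± 0.468% of this sum in Ctrl and 90.7 ± 0.586% in shARF, but 40.3 ± 3.75% in MLN and 48.6 ± 1.19% in Both. CCND3 made up 59.6 ± 3.71% in MLN and 51.1 ± 1.196% in Both, and CCND2 stayed below 1% everywhere. The ratio of CCND1 to CCND3 within a library, which does not depend on the library's scaling, fell by 3.91 (log2) in MLN vs Ctrl and by 3.35 in Both vs shARF. The libraries did not overlap in either comparison (exact permutation test, two-sided, p = 0.10, the smallest p that 3 libraries against 3 allow, and 0.125 adjusted over 20 comparisons of ratios). The CCND1 to CCND3 ratio was also higher in every Both library than in every MLN library, by 0.49 on the log2 scale.

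CCNE2 had the largest rise of the 10 genes in both cell populations on log2(TPM + 0.1). In plain mean TPM the barely expressed CCND2 had a larger ratio of Both over shARF (7.81, against 5.67 for CCNE2). It was at 5.61, 5.10 and 5.39 TPM in Ctrl and 48.0, 42.5 and 52.3 TPM in MLN (8.70-fold, log2 fold change 3.12, SE 0.090, adjusted p = 4.89e-06). In shARF it was at 8.95, 10.6 and 10.3 TPM and in Both at 54.6, 62.6 and 52.1 TPM (5.62-fold, log2 fold change 2.49, SE 0.096, adjusted p = 9.34e-06). Without the drug every shARF library was above every Ctrl library (1.83-fold, adjusted p = 0.00127). Under MLN4924 CCNE2 was not called between Both and MLN (0.25, 95% interval −0.0079 to 0.50, adjusted p = 0.122), though it was called under median-of-ratios scaling (0.34, adjusted p = 0.0378), and the interaction was −0.63 (adjusted p = 0.00474). CCNE2 lies on chromosome 8 from 94879770 to 94896678 on the minus strand, and 37.0% of its exonic bases also lie in exons of INTS8 on the opposite strand. Whether the counting used strand is not stated. INTS8 was at 26.2 to 26.7 TPM in Ctrl, 16.6 to 17.8 in MLN, 32.5 to 34.5 in shARF libraries and 17.0 to 22.01 in Both libraries.

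CCNE1, the other E-type cyclin, rose with MLN4924 in both cell populations. It was at 6.74, 4.52 and 4.71 TPM in Ctrl, 15.2, 15.8 and 17.0 in MLN, 4.01, 2.86 and 4.73 in shARF libraries and 12.7, 13.0 and 14.2 in Both libraries. MLN4924 libraries did not overlap with DMSO libraries, whereas the Ctrl and shARF ranges overlapped. The rise was 3.02-fold in PC3 cells (log2 fold change 1.59, SE 0.16, adjusted p = 0.000320) and 3.44-fold in PC3-shp14ARF cells (1.78, SE 0.18, adjusted p = 0.000361), and the interaction of 0.19 had an interval of −0.35 to 0.73. CCNE1 was not called in shARF vs Ctrl (−0.46, interval −1.09 to 0.18). It was lower in Both than in MLN by 0.26 on the log2 scale (adjusted p = 0.0383), a call lost under 7 of 13 other settings. These were median-of-ratios scaling (adjusted p = 0.131), no trend (0.0624), 12 libraries in one fit (0.266), and the fits without MLN replicate 2 (0.0984), MLN replicate 5 (0.0989), Both replicate 2 (0.120) or Both replicate 3 (0.0981).

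The make-up of the E-type pair changed with drug and with shRNA. CCNE2 held 50.6 ± 4.49% of the summed TPM of the pair in Ctrl, 74.8 ± 1.64% in MLN, 72.1 ± 5.81% in shARF libraries and 80.8 ± 2.12% in Both libraries. The CCNE1 to CCNE2 ratio of each MLN and shARF library was below that of all Ctrl libraries, with mean log2 differences of −1.53 and −1.33. It was lower in Both than in shARF by 0.71 and lower than in MLN by 0.51, again without overlap (exact permutation test, p = 0.10 in each of these 4 comparisons, the smallest possible).

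CDK2, the partner of cyclin E, was higher with the drug and in PC3-shp14ARF cells. It was at 65.6, 61.8 and 65.1 TPM in Ctrl, 216, 225 and 264 in MLN, 129.7, 136 and 132 in shARF libraries and 309, 315 and 271 in Both libraries. No 2 conditions overlapped. The rise under MLN4924 was 3.64-fold in PC3 cells (log2 fold change 1.86, SE 0.084, adjusted p = 1.60e-05) and 2.25-fold in PC3-shp14ARF cells (1.17, SE 0.066, adjusted p = 3.26e-05). Its interaction was −0.70 (adjusted p = 0.000694). In shARF vs Ctrl CDK2 was 2.06-fold higher (log2 fold change 1.04, SE 0.033, adjusted p = 6.04e-05). In Both vs MLN it was 1.27-fold higher (adjusted p = 0.0450), a call lost under 6 of 13 other settings, among them without MLN replicate 1 (0.115), MLN replicate 2 (0.140), Both replicate 2 (0.138) or Both replicate 3 (0.130). The gene whose profile over the 12 libraries was most like that of CDK2 was RRM2, a subunit of ribonucleotide reductase (r = 0.997), which went from 63.7 TPM in Ctrl to 313 in MLN, 146 in shARF and 435 in Both.

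No response of CDK4 to MLN4924 beyond the spread of the libraries was detected in PC3 cells. It was at 238, 223 and 228 TPM in Ctrl and 196, 224 and 241 in MLN (log2 fold change −0.064, interval −0.27 to 0.14, adjusted p = 0.536), and without MLN replicate 1 the sign of this small value turned to 0.018. In PC3-shp14ARF cells it was at 337, 341 and 370 TPM with DMSO and 306, 283 and 293 with MLN4924, a fall of 0.25 on the log2 scale (adjusted p = 0.00845). This call was kept under all 13 other settings, with log2 fold changes of −0.277 to −0.152 and an adjusted p up to 0.0496. The median-of-ratios scale of whole libraries differed by −0.096 (log2) in Both vs shARF and by −0.092 in Both vs MLN. Fold changes in TPM include this shift. A difference between the responses of PC3 and PC3-shp14ARF cells was not called (interaction −0.18, interval −0.41 to 0.044, adjusted p = 0.218), except without MLN replicate 1 (−0.27, adjusted p = 0.0341). With or without the drug, the libraries with the shRNA were above those without it. CDK4 was 1.52-fold higher in shARF vs Ctrl (log2 fold change 0.60, SE 0.048, adjusted p = 0.000661) and 1.34-fold higher in Both vs MLN (0.42, SE 0.087, adjusted p = 0.0155). The call in Both vs MLN was lost without MLN replicate 2 (adjusted p = 0.0541) or Both replicate 2 (0.0622). Of the exonic bases of CDK4, 44.2% also lie in exons of TSPAN31 on the opposite strand, which was at 21.9 to 23.9 TPM in Ctrl and at 11.4 to 14.5 in the other conditions.

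CDK6, the second kinase of the D-type cyclins, was highest in Ctrl. It was at 29.0, 24.9 and 26.5 TPM in Ctrl, 14.97, 15.45 and 15.01 in MLN, 17.5, 16.9 and 16.6 in shARF libraries and 14.4, 16.0 and 13.9 in Both libraries. Every Ctrl library was above every other library. The fall was 1.76-fold with MLN4924 in PC3 cells (log2 fold change −0.82, SE 0.068, adjusted p = 0.000146). CDK6 was 1.57-fold lower in shARF than in Ctrl (−0.65, SE 0.064, adjusted p = 0.00133). In PC3-shp14ARF cells the drug lowered CDK6 by 0.21 on the log2 scale (adjusted p = 0.0376), a call lost under 8 of 13 other settings with an adjusted p up to 0.135, and among them without any shARF library (0.116, 0.0867 and 0.0683 without replicates 1, 3 and 5) or without Both replicate 2 (0.106) or 4 (0.0862). The interaction of CDK6 was 0.61 (adjusted p = 0.000988), the only one of these genes called with a positive sign. CDK4 made up 89.6 ± 0.423% of the summed TPM of CDK4 and CDK6 in Ctrl, 93.5 ± 0.614% in MLN, 95.3 ± 0.325% in shARF libraries and 95.2 ± 0.490% in Both libraries. The log2 ratio of CDK4 to CDK6 rose by 0.75 in MLN vs Ctrl and by 1.253 in shARF vs Ctrl without overlap, and differed by −0.041 between Both and shARF, with overlap.

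WEE1, the inhibitory kinase, was at 5.02, 4.57 and 5.52 TPM in Ctrl, 10.8, 10.3 and 10.2 in MLN, 10.6, 10.0 and 10.4 in shARF libraries and 9.38, 9.67 and 10.4 in Both libraries. Every Ctrl library was below all others, and the remaining 3 conditions overlapped. It was 2.06-fold higher in MLN vs Ctrl (adjusted p = 0.000177) and 2.04-fold higher in shARF vs Ctrl (adjusted p = 0.000720). In PC3-shp14ARF cells no change with MLN4924 was detected (−0.074, interval −0.23 to 0.083, adjusted p = 0.357). Its interaction of −1.11 (SE 0.12, adjusted p = 3.73e-05) was the largest in size among the genes whose interaction was called. The nearest profile among 14654 genes averaging 1 TPM or more was that of GMNN, geminin, the inhibitor of the licensing factor CDT1 (r = 0.980), with 24.1, 67.8, 60.2 and 65.6 TPM in Ctrl, MLN, shARF and Both.

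CDC25A, the phosphatase that opposes WEE1 and whose promoter is printed above, was higher with the drug and with the shRNA. It was at 14.9, 12.7 and 12.4 TPM in Ctrl, 36.5, 36.2 and 46.0 in MLN, 23.02, 21.6 and 23.98 in shARF libraries and 48.9, 46.6 and 43.1 in Both libraries. Only the MLN and Both ranges overlapped. The rise with MLN4924 was 2.95-fold in PC3 cells (log2 fold change 1.56, SE 0.12, adjusted p = 0.000109) and 2.02-fold in PC3-shp14ARF cells (1.01, SE 0.065, adjusted p = 5.27e-05). Its interaction was −0.55 (adjusted p = 0.0127). In shARF vs Ctrl the rise was 1.72-fold (adjusted p = 0.00187), and between Both and MLN CDC25A was not called (0.23, interval −0.039 to 0.50), though it was without MLN replicate 5 (0.34, adjusted p = 0.0297). The log2 ratio of WEE1 to CDC25A was −1.38 in Ctrl, −1.90 in MLN, −1.14 in shARF libraries and −2.22 in Both libraries, so it was lower with MLN4924 in both cell populations, by 0.52 and by 1.08 without overlap (exact permutation test, p = 0.10, the smallest possible).

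**Figure D2:**
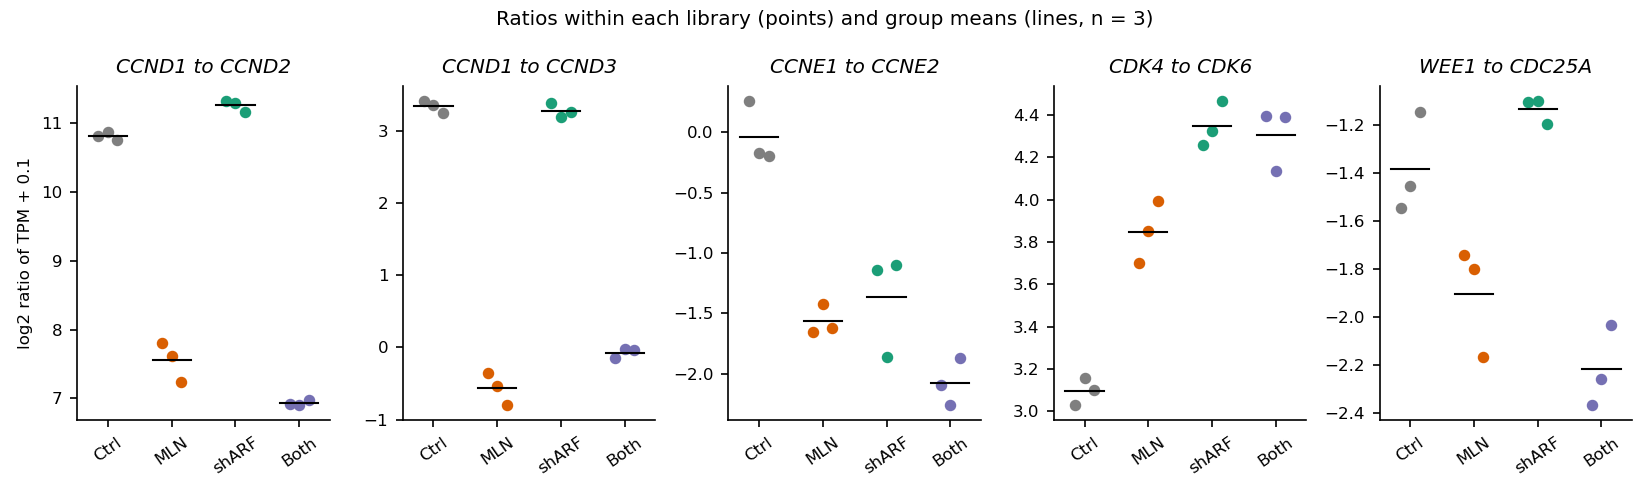
Log2 ratio of the TPM + 0.1 of 2 genes in each library (y axis, its own range in each panel, not starting at 0) in the 4 conditions (x axis); points are libraries and lines are means of 3. The CCND1 to CCND3 ratio is near 3 with DMSO and below 0 with MLN4924.

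With DMSO, PC3-shp14ARF cells had more CCNE2, CDK2, CDK4, WEE1 and CDC25A transcript than PC3 cells, and less CDK6. In shARF vs Ctrl 5 of the 10 genes were called as higher and 2 as lower (5 and 1 of 9 without CCND2, whose mean was under 0.1 TPM in both groups), where 41.4% of all genes tested were called, 21.0% as higher and 20.4% as lower. CCND1, CCND3 and CCNE1 were not called. With the library number added to the fit as a replicate block, 0 of the 10 genes and 0 of all genes were called in shARF vs Ctrl. In Both vs MLN 2 genes (CDK2 and CDK4) were called as higher and 2 (CCND3 and CCNE1) as lower, where 32.4% of all genes were called, 11.8% as higher and 20.6% as lower, and the count was 0 without MLN replicate 2, 0 without Both replicate 2 (3 genes each by an unadjusted p below 0.05 in limma) and 1 without Both replicate 3. The share of the 10 genes called was near the background in this comparison. The interaction was called for 6 of the 10 genes, 1 positive and 5 negative, where 28.3% of all genes were called, 11.2% as positive and 17.1% as negative. The negative ones were CCND3, CCNE2, CDK2, WEE1 and CDC25A.

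**Figure D3:**
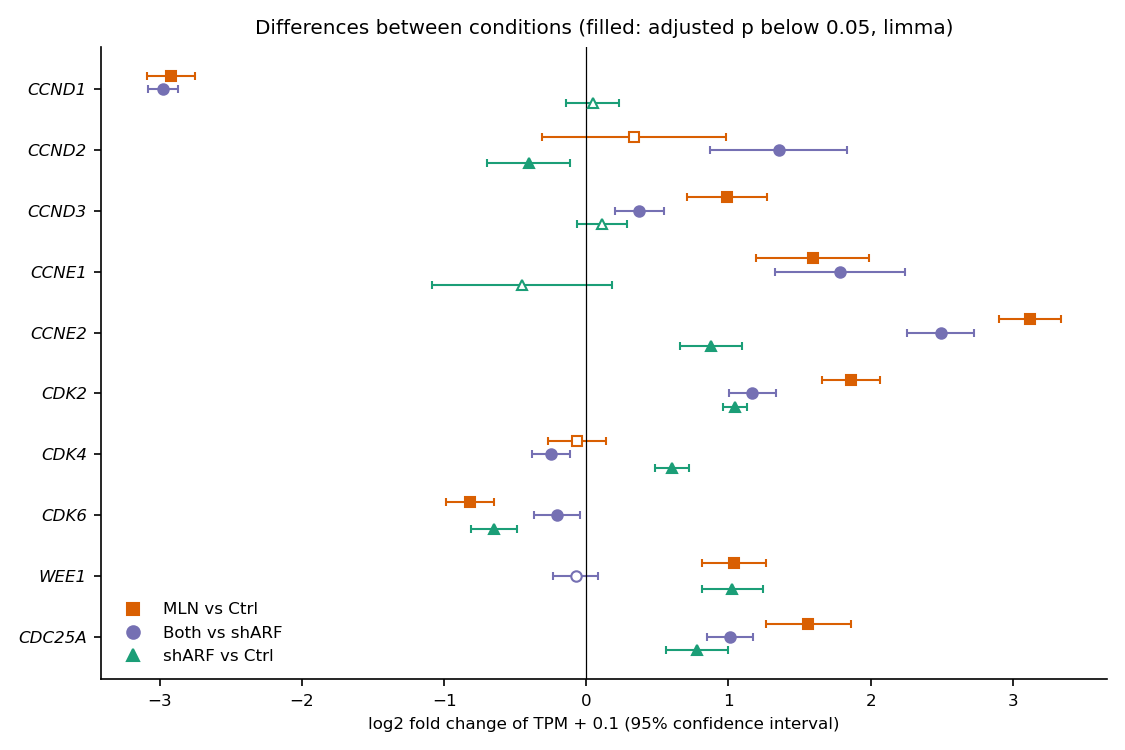
Log2 fold change of TPM + 0.1 (x axis) with its 95% confidence interval for the 10 genes (y axis) in MLN vs Ctrl, Both vs shARF and shARF vs Ctrl; filled symbols had an adjusted p below 0.05 (limma). The CCND1 intervals for the drug lie near −3 in both cell populations, and WEE1 lies near 1 in MLN vs Ctrl and shARF vs Ctrl but near 0 in Both vs shARF.

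Other genes of the same machinery were described by lists. Of all genes tested, 32.2% were called as higher and 29.4% as lower in MLN vs Ctrl. The shares were 21.0% and 20.4% in shARF vs Ctrl, and 28.3% and 32.8% in Both vs shARF. Among 12 other cyclins, CDKs and CDK subunits, 6 were higher and 2 lower in MLN vs Ctrl. The share called was near that of all genes, 61.6%. CDK1, the mitotic kinase, rose 2.75-fold (adjusted p = 0.000100), CKS1B, a CDK-binding subunit, 2.33-fold (adjusted p = 2.09e-05), CCNA1, an A-type cyclin, 2.91-fold (adjusted p = 2.15e-05), and CDK7, the CDK-activating kinase, with a log2 fold change of 0.87 (adjusted p = 0.000101). In shARF vs Ctrl 7 of the 12 were higher and 2 lower, and in Both vs shARF 5 were higher and 4 lower. Of the 6 tested relatives and regulators of WEE1 and CDC25, 3 were higher and 3 lower in MLN vs Ctrl. PKMYT1, the membrane-bound relative of WEE1 that inhibits CDK1, rose 9.02-fold from 5.70 ± 0.798 to 52.4 ± 9.53 TPM, CDC25C rose by a log2 fold change of 0.79, and CDC25B, the sister phosphatase of CDC25A, fell 2.51-fold. PLK1, the mitotic kinase that promotes WEE1 degradation, fell 4.06-fold from 53.1 ± 1.72 to 13.1 ± 2.27 TPM.

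Of the 7 CDK inhibitor genes, 4 were higher and 2 lower in MLN vs Ctrl, where 32.2% and 29.4% of all genes were. In Both vs MLN 6 of 7 were lower, where 20.6% of all genes were. CDKN2A, which the shRNA targets, was 1 of these 6 (log2 fold change −1.305, adjusted p = 0.00188 in limma). It was also 1 of the 2 lower in MLN vs Ctrl. CDKN2D, an INK4 inhibitor of CDK4 and CDK6, rose (log2 fold change 2.04, adjusted p = 4.17e-05) and CDKN2B of the same family fell (−1.38, adjusted p = 3.76e-05). In MLN vs Ctrl CDKN1A (p21) rose by 1.60 and CDKN1B (p27) by 0.66 (log2). CDKN1A was lower in shARF vs Ctrl (−3.20, adjusted p = 3.48e-05 in limma) and rose by 4.04 in Both vs shARF. Its interaction was 2.44 (adjusted p = 4.25e-07 in limma). Of the 12 E2F and pocket protein genes, 6 were higher and 5 lower in MLN vs Ctrl and also in Both vs shARF. The activators E2F1 and E2F2 rose by 2.25 and 3.10 on the log2 scale, E2F6, a repressor, by 0.99, and E2F5 fell by 1.60. Of 14 cullins, adaptors and receptors known to direct these cyclins, CDC25A or WEE1 to degradation, 1 was higher and 9 lower with the drug in PC3 cells, and likewise 1 and 9 in PC3-shp14ARF cells. Of all genes tested, 29.4% were called as lower in MLN vs Ctrl and 32.8% in Both vs shARF. In MLN vs Ctrl the log2 fold change was −0.56 for CUL1, −0.54 for CUL4A, −0.45 for CUL4B and −0.45 for FBXW11, the 4 with the smallest adjusted p. The largest falls of the list, picked out after their values were seen, were those of FBXO4 (95% interval −1.31 to −0.69, adjusted p = 0.000813), an F-box protein, and DDB1 (95% interval −0.95 to −0.44, adjusted p = 0.00169), the adaptor of CUL4 ligases. Of 3 deubiquitinases listed, USP2 rose (log2 fold change 1.67), USP7 fell (−0.47) and USP28 was not called (−0.030).

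Genes of S phase and of G2/M moved with the conditions as well. Of all genes tested, 32.2% were called as higher and 29.4% as lower in MLN vs Ctrl. The shares were 21.0% and 20.4% in shARF vs Ctrl, and 28.3% and 32.8% in Both vs shARF. A negative interaction was called for 17.1%. All 12 S phase genes listed were higher in MLN vs Ctrl and in shARF vs Ctrl, with median log2 fold changes of 0.96 and 1.21, and all 12 had a negative interaction. In Both vs shARF 5 of them were higher and 7, MCM2 to MCM7 and GINS2, were lower. In MLN vs Ctrl PCNA, the DNA polymerase clamp, rose by 1.67, CDC6, an origin licensing factor, by 1.96, TYMS, thymidylate synthase, by 1.90, and RRM2 by 2.30 (all log2). PCNA, CDC6, TYMS and RRM2 were also higher in Both vs shARF. The smallest rises of the list in MLN vs Ctrl were those of MCM3 (0.22) and MCM6 (0.20). Of the 12 G2/M genes, 11 were higher in shARF vs Ctrl, while 2 were higher and 6 lower in MLN vs Ctrl, and 1 was higher and 9 lower in Both vs shARF. In MLN vs Ctrl the share of them called was near that of all genes, 61.6%. PLK1, AURKA (−1.11) and CDC20 (−1.02) fell and CDK1 rose in MLN vs Ctrl. Their part in the values of CCNE2, CDK2, WEE1 and CDC25A was not tested.

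The profiles most like those of the other genes over the 12 libraries were read on log2(TPM + 0.1) and are descriptions, since libraries of one condition share its level. CCND1 was followed most closely by KDM4B, a histone demethylase (r = 0.998), MSRA, a methionine sulfoxide reductase (0.998), and COL5A2, a collagen chain (0.997). COL5A2 was at 147 TPM in Ctrl and 17.8 in MLN. CCNE2 was nearest to EIF1 (0.995), a translation initiation factor, and CDC25A to C17orf53 (0.993), which is also known as HROB. CDK6 was nearest to DNAJC3 (0.990), CDK4 to TUBB, a tubulin chain (0.986), CCND3 to UBL7 (0.983), CCNE1 to MAPK11 (0.993) and the barely expressed CCND2 to EPB41L1 (0.978).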

How the data were processed

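RNA-seq of 12 libraries (4 conditions, 3 each) was analysed. Reads had been adapter-trimmed and aligned to hg38 by the authors, who counted them in CLC Genomics Workbench against Ensembl GRCh38 genes. The values they deposited are TPM, which sum to 1000000 in every library, so the depth per library is unknown. GEO lists 1 sample per condition. Columns were matched to sample titles by the condition in their names, which also carry an undescribed number.

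Log2(TPM + 0.1) was fitted for 19932 genes (mean TPM of 0.1 or more) with limma 3.58.1 in R 4.3.3 (eBayes with trend), and p-values were adjusted by Benjamini-Hochberg across these genes. Pairwise comparisons used their 6 libraries and the interaction all 12. Genes were called at an adjusted p below 0.05. The fits were tested on simulated data. Gene-pair ratios were compared by exact permutation tests. Alternatives were other pseudocounts (1, 0.01) and filters (1 TPM, none), median-of-ratios scaling, eBayes without trend, 12 libraries in one fit, a replicate block, and each library left out. Genes named beyond the 10 were up to 4 per list with the smallest adjusted p in MLN vs Ctrl, and those with the highest Pearson r with a member. Added to these were CDKN2A as the target of the shRNA, cell type markers, and genes sharing exonic bases with a member. FBXO4 and DDB1 were added for the size of their fall. MCM2 to MCM7 and GINS2 were added as the S phase genes lower in Both vs shARF. The members and lists were chosen with earlier results of these data known. Coordinates are from GENCODE release 44 (GRCh38), not the authors' annotation, and promoters from RefSeq (GRCh38.p14; 5 of 10 genes matched).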

Additional observations from a re-analysis of the deposited data

Results flagged for a closer look

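The response to MLN4924 differed between PC3 and PC3-shp14ARF cells, by the interaction over the 12 libraries (limma, adjusted p below 0.05), for 6 of the 10 genes. Of all genes tested, 28.3% were called in this way. The interaction was −1.11 for WEE1, −0.70 for CDK2, −0.63 for CCNE2, −0.62 for CCND3, −0.55 for CDC25A and 0.61 for CDK6 on the log2 scale. With a replicate block the adjusted p was 0.0671 for CCND3 and 0.229 for CDC25A, and the other 4 were called under every alternative run.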

How the results depend on the processing

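Of 725 comparisons of a single gene with another setting, 663 kept their direction and their side of the threshold, 44 lost the call, 7 gained it and 11 turned in sign. None of the 11 had been called. They were CCND1 under median-of-ratios scaling in Both vs MLN (0.077) and in the interaction (0.040), with a replicate block in shARF vs Ctrl (−0.000864) and in the interaction (0.033), and without Ctrl replicate 3 in shARF vs Ctrl (−0.014, with −0.014 to 0.11 over the libraries left out). The others were CDK4 without MLN replicate 1 in MLN vs Ctrl (0.018, range −0.13 to 0.018), CDK6 under median-of-ratios scaling (0.053) and without Both replicate 4 (0.0049, range −0.098 to 0.0049) in Both vs MLN, WEE1 under median-of-ratios scaling in Both vs shARF (0.021) and Both vs MLN (0.0049), and CCNE1 without shARF replicate 3 in the interaction (−0.0044, range −0.0044 to 0.35).

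The number of the 10 genes called was 8 in MLN vs Ctrl with each library left out in turn, 8 to 9 in Both vs shARF, 6 to 7 in shARF vs Ctrl, 6 to 7 in the interaction and 0 to 5 in Both vs MLN, where it was 2 without a filter. The library numbers pair nothing that is described. With a replicate block, possible where conditions share 2 numbers, 0 of the 10 genes were called in shARF vs Ctrl (limma, as were 0 of all genes, while 8 of the 10 had an unadjusted p below 0.05, and the 7 called without it had an adjusted p of 0.0607 to 0.101), and deviations of same-numbered libraries correlated at −0.147 to 0.063. At a pseudocount of 1 the CCND1 to CCND2 log2 ratio differed by −2.956 in MLN vs Ctrl, 0.10 in shARF vs Ctrl, −3.208 in Both vs shARF and −0.15 in Both vs MLN. Values of CCND2, near 0.1 TPM, are limited by an unknown number of reads.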
